A study of Sus scrofa with 40 samples.

Results

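The 10 genes described here are markers of fat cells, read in muscle tissue: the secreted proteins ADIPOQ (adiponectin), LEP (leptin) and CFD (complement factor D, also called adipsin), the lipid droplet proteins PLIN1 and CIDEC, the fatty acid carrier FABP4, the lipase LIPE, the glycerol channel AQP7 and the transcription factors PPARG and CEBPA. They were chosen by name and make up 10 of the 21280 genes in the deposited table. Of these, 9 carried their symbol in the table, and AQP7 was matched by the table's own description and gene number. The samples were 40 RNA sequencing libraries from male Chalu black pigs, a Chinese pork breed, all sired by 1 boar and reared together. There were 10 libraries from pork belly (PB), 10 from the trapezius, a muscle over neck and shoulder (TM), 10 from the hamstring (HM) and 10 from the longissimus dorsi of the back (LDM), all taken after slaughter from the left side, freed of fascia and not treated. The pigs' age is not given in the labels, nor is it said whether libraries with the same number in different cuts came from the same pig. Libraries are named by cut and number, so PB7 is belly library 7.

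Intramuscular fat consists of fat cells that lie between the fibres of a muscle. A fat cell stores triglyceride in a large droplet coated by perilipin 1, switches on its genes under PPARG and CEBPA, releases fatty acids and glycerol through lipases and AQP7, and secretes adiponectin, leptin and adipsin. In a muscle homogenate the messages of such cells are mixed with those of muscle fibres, capillaries, connective tissue and immune cells, and some of the 10 genes are also used by those other cells. Fat content itself was not among the values analysed here. In these bulk samples, fewer fat cells and less RNA per fat cell cannot be told apart.

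The secreted proteins lie on 3 chromosomes of the pig build Sscrofa11.1. ADIPOQ (ENSSSCG00000039103) is at chromosome 13, 124633684 to 124646648, plus strand. LEP (ENSSSCG00000040464) is at chromosome 18, 20106868 to 20123447, minus strand, and CFD (ENSSSCG00000013418) at chromosome 2, 77509795 to 77511974, minus strand. Of the droplet and lipid handling genes, PLIN1 (ENSSSCG00000001844) is at chromosome 7, 55235426 to 55250797, minus strand, and CIDEC (ENSSSCG00000011557) at chromosome 13, 66141838 to 66149703, minus strand. FABP4 (ENSSSCG00000040681) is at chromosome 4, 55096404 to 55101897, plus strand, LIPE (ENSSSCG00000003018) at chromosome 6, 49540907 to 49560126, plus strand, and AQP7 (ENSSSCG00000010992) at chromosome 10, 33099169 to 33116155, plus strand. The transcription factor genes are PPARG (ENSSSCG00000011579) at chromosome 13, 68302655 to 68433947, plus strand, and CEBPA (ENSSSCG00000002866) at chromosome 6, 43083203 to 43085836, minus strand. The whole of AQP7, 16987 bases, lies inside NFX1 on the opposite strand, and the whole of CFD, 2180 bases, lies under the gene models of MED16 on the opposite strand and ELANE on the same strand. How strand was treated in counting was not given in the sources used here, so AQP7 and CFD values are uncertain to the extent that reads of these neighbours were counted with them. The other 8 genes overlapped no other gene model.

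Total counts per library ran from 12305913 to 17735722. All cuts carried a muscle signal: the summed CPM (counts scaled to library size) of 7 muscle fibre markers ran from 77253 to 224855 over the 40 libraries. LYZ, a macrophage and neutrophil product, was listed at 0 in every cut, and the keratin KRT5 of skin was listed at 0 in PB, TM and LDM. Neither gene stands for its whole cell type. Of 12 leukocyte markers 11 had enough counts to test, and the sum of the 12 reached 317.8 CPM in PB8. Of 4 skin markers 1 had enough counts to test, and it was lower in TM and in HM against LDM. The labels of PB1 disagree: its title and description place it in the belly, its tissue entry in the longissimus. It was treated as belly here, and no call on a fat cell gene described below changed without it.

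Compared per length of transcript, in FPKM (fragments scaled by gene length and library total) averaged over the 40 libraries, CFD had the highest level at 49.6 and FABP4 followed at 32.4. LIPE averaged 12.4, ADIPOQ 6.36, AQP7 6.07, PLIN1 4.32, CIDEC 2.44, CEBPA 1.56, PPARG 0.971 and LEP 0.148 FPKM. Neighbours in this order overlapped over the libraries: CFD ran from 19.4 to 127.8 FPKM and FABP4 from 5.27 to 95.9 FPKM. LEP had 283 counts in all 40 libraries together, between 0 and 33 in any library, and stayed under the filter for the test, so 9 of the 10 genes were tested. Levels below are in CPM normalised for library size and composition (TMM), and are compared between libraries, not between genes.

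Of the 9 genes tested, AQP7 and CFD passed in 3 pairs of cuts each, and the other 7 passed in no pair, with cut alone as the term. With the library number as a block, which the labels do not tie to a pig, LIPE also passed in PB against HM and TM against HM. FABP4 then passed in HM against LDM. AQP7 was higher in PB, TM and HM, each against LDM, and CFD was lower in PB against LDM, HM and TM. In the edgeR quasi-likelihood test of any difference among the 4 cuts, with Benjamini-Hochberg adjustment over 11713 genes and a threshold of 0.05, 3 of the 9 tested genes passed: AQP7 (adjusted p = 2.29e-05), CFD (adjusted p = 0.000879) and LIPE (adjusted p = 0.0391). Of all genes tested 57.2% passed, and the difference between these shares was not itself tested. LIPE lost its call without any 1 of 8 libraries (TM4, TM10, HM1, HM2, HM5, HM7, HM8 and HM9), with an adjusted p of up to 0.0879.

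Pair by pair, 1 or 2 of the 9 genes passed wherever any did. In PB against LDM, 1 of the 9 genes was higher and 1 lower, beside 41.7% of all genes in either direction (20.5% higher and 21.2% lower). In TM against LDM 1 was higher and 0 lower, beside 24.7% of all genes (11.3% higher and 13.4% lower), and in HM against LDM 1 was higher and 0 lower, beside 32.5% (16.5% higher and 16.0% lower). In PB against HM 0 were higher and 1 lower, beside 27.6% of all genes (13.5% higher and 14.1% lower), and in PB against TM 0 were higher and 1 lower, beside 23.1% (13.4% higher and 9.69% lower). In TM against HM 0.768% of all genes passed (0.41% higher and 0.359% lower). There 0 of the 9 genes passed by edgeR, 2 of them (LIPE and AQP7) had an unadjusted p under 0.05, and DESeq2 called 1 (LIPE) and limma-voom 0. The median log2 difference of the 9 genes was 0.16 in PB against LDM, 0.62 in TM against LDM, -0.20 in HM against LDM, 0.33 in PB against HM, -0.47 in PB against TM and 0.74 in TM against HM. The medians over all tested genes lay between -0.06 and 0.08. Whether replicates of a cut came from separate pigs is not stated beyond the 10 samples per cut, so the p-values measure the spread between these samples, which may be partly technical.

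**Figure D1:**
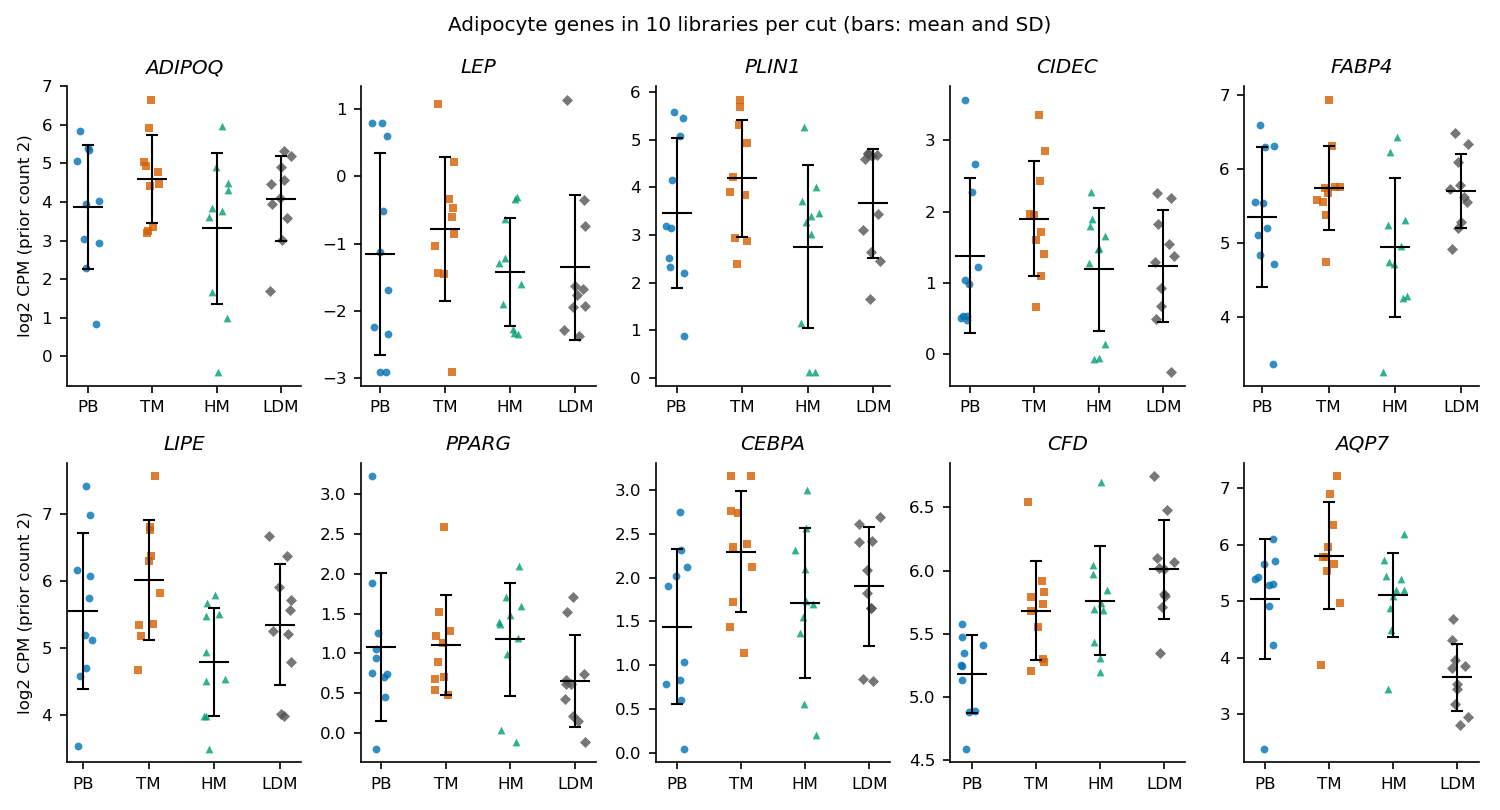
Normalised CPM on a log axis for each of the 10 fat cell genes in the 10 libraries of PB, TM, HM and LDM, 1 point per library. ADIPOQ spans 11.09-fold in TM to 101-fold in HM inside a cut (33.9-fold in HM without HM7) and its 4 ranges overlap, while 9 of the 10 TM libraries exceeded every LDM library for AQP7.

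The adipokine ADIPOQ, a hormone made almost wholly by fat cells, spread widely inside every cut. In PB it ran from 1.64 CPM in PB7 through a median of 15.8 to 57.0 CPM in PB3, and in TM from 9.07 CPM in TM10 through a median of 24.6 to 100.6 CPM in TM6. In HM it ran from 0.616 CPM in HM7 through a median of 13.9 to 62.5 CPM in HM6, and in LDM from 3.10 CPM in LDM7 through a median of 19.6 to 39.8 CPM in LDM3. The 4 ranges overlapped, TM had the highest lowest library, and HM7 held 9 ADIPOQ counts in all. By mean the order was TM at 32.3 ± 28.4, PB at 22.7 ± 19.1, LDM at 20.7 ± 12.0 and HM at 17.97 ± 18.3 CPM (SD, n = 10 each). No neighbours in that order differed beyond their spread, and none of the 6 pairs passed. The log2 difference was 0.13 ± 0.57 (SE) in PB against LDM, with a 95% interval of -1.02 to 1.28, and 0.84 ± 0.57 in TM against HM, with an interval of -0.31 to 2.0.

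PLIN1, which coats the fat cell's droplet and gates lipase access to it, also spread widely inside every cut. Its lowest, median and highest values were 1.71, 8.87 and 47.8 CPM in PB, 5.09, 16.7 and 57.2 CPM in TM, 0.954, 9.96 and 38.3 CPM in HM, and 3.04, 17.3 and 26.1 CPM in LDM. TM6 and HM6 were the highest of their cuts, as for ADIPOQ, and PB7 and LDM7 the lowest. The other extremes were not those of ADIPOQ: PB9 and LDM1 were the highest of their cuts, and TM5 and HM5 the lowest. The cuts overlapped and no pair passed. The smallest adjusted p-values of PLIN1 were 0.395 in PB against HM, at a log2 difference of 0.68 ± 0.57, and 0.396 in TM against HM, at 1.153 ± 0.58 (edgeR).

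CIDEC, which enlarges droplets by joining them, was a low message. It averaged 3.39 ± 3.39 CPM in PB, 4.20 ± 2.64 CPM in TM, 2.49 ± 1.29 CPM in HM and 2.53 ± 1.32 CPM in LDM (SD, n = 10 each). Its extremes were 11.8 CPM in PB9 and 0.704 CPM in LDM4, and no pair passed. LEP, a hormone released by filled fat cells, averaged 0.582 ± 0.682 CPM in PB, 0.601 ± 0.556 CPM in TM, 0.296 ± 0.238 CPM in HM and 0.411 ± 0.612 CPM in LDM (SD, n = 10 each). It was at 0 in PB7, PB8 and TM2, and 1 count was worth about 0.0813 CPM in the shallowest library. With no filter the edgeR adjusted p of LEP was between 0.360 and 1 over the 6 pairs, and the SE of its log2 differences was 0.65 to 0.69. The parts of depth and of the spread between libraries in that were not tested.

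FABP4, a fatty acid carrier of fat cells that capillary endothelium and macrophages also make, averaged 48.4 ± 27.7 CPM in PB, 57.7 ± 26.4 CPM in TM, 37.0 ± 24.8 CPM in HM and 54.8 ± 19.4 CPM in LDM (SD, n = 10 each). Its lowest library was HM5 at 9.35 CPM and its highest TM6 at 122.9 CPM. The nearest to a call was HM against LDM, at -0.57 ± 0.33 on the log2 scale (edgeR adjusted p = 0.178), with HM lower in 9 of 10 same-numbered pairs.

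Neither of the transcription factors that drive fat cell formation passed in any pair. PPARG averaged 2.53 ± 2.47 CPM in PB, 2.25 ± 1.37 CPM in TM, 2.35 ± 1.01 CPM in HM and 1.57 ± 0.764 CPM in LDM (SD, n = 10 each). The PB mean carried 1 high library, PB8 at 9.25 CPM, against a next value of 3.56 CPM in PB3. CEBPA averaged 3.06 ± 1.85 CPM in PB, 5.28 ± 2.38 CPM in TM, 3.65 ± 2.06 CPM in HM and 3.95 ± 1.68 CPM in LDM (SD, n = 10 each). PB against TM came nearest, at -0.78 ± 0.34 on the log2 scale (edgeR adjusted p = 0.0877), and was past the threshold without PB3 (adjusted p = 0.0327).

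LIPE, the hormone-sensitive lipase that fat cells use most and muscle fibres use too, passed the 4-cut test but no single pair. It ran from 11.4 CPM in PB8 through a median of 44.9 to 171.1 CPM in PB4, and from 25.2 CPM in TM7 through 67.3 to 189.6 CPM in TM4. In HM it ran from 11.08 CPM in HM7 through 26.7 to 55.2 CPM in HM4, and in LDM from 15.6 CPM in LDM7 through 42.5 to 101.8 CPM in LDM10. TM exceeded HM in 10 of 10 same-numbered pairs, by 1.29 ± 0.41 on the log2 scale, with an edgeR adjusted p of 0.128. PB exceeded HM in 9 of 10, by 0.98 ± 0.41 (edgeR adjusted p = 0.0664), and this difference was past the threshold when any 1 of 8 libraries (PB2, PB8, TM3, TM8, HM4, LDM5, LDM7 and LDM9) was left out.

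AQP7 is the channel through which glycerol leaves a fat cell, and muscle also uses it. It was the only one of the 9 genes that passed as higher in all of PB, TM and HM against LDM. It ran from 5.12 CPM in PB8 through a median of 40.7 to 68.9 CPM in PB3, and from 14.6 CPM in TM7 through 55 to 148.1 CPM in TM10. In HM it ran from 10.8 CPM in HM9 through 36.6 to 73.2 CPM in HM4, and in LDM from 6.90 CPM in LDM2 through 12.7 to 25.8 CPM in LDM6. In PB 8 of 10 libraries, in TM 9 of 10 and in HM 8 of 10 exceeded every LDM library, and the ones that did not were PB1, PB8, TM7, HM7 and HM9. The log2 difference from LDM was 1.52 ± 0.34 in PB (edgeR adjusted p = 0.000527), 2.30 ± 0.35 in TM (adjusted p = 1.27e-05) and 1.496 ± 0.34 in HM (adjusted p = 0.00101). These correspond to 2.88-fold, 4.92-fold and 2.82-fold. AQP7 was higher in 9 of 10, 10 of 10 and 9 of 10 same-numbered pairs. NFX1, which spans AQP7 on the other strand, differed the other way, by -0.40 ± 0.14 in PB against LDM (edgeR adjusted p = 0.0235) and -0.39 ± 0.14 in HM against LDM (adjusted p = 0.0359).

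CFD, a protease of the alternative complement pathway that fat cells and some other cells secrete, was lowest in PB. It ran from 24.0 CPM in PB1 through a median of 37.9 to 47.5 CPM in PB9, against 36.7 CPM in TM5, a median of 52.2 and 93.0 CPM in TM8. In HM it ran from 36.5 CPM in HM7 through 52.5 to 103.7 CPM in HM6, and in LDM from 40.7 CPM in LDM4 through 64.7 to 107.3 CPM in LDM10. Of the PB libraries 7 of 10 lay below every LDM library, and PB3, PB8 and PB9 lay inside the LDM range. The log2 difference was -0.85 ± 0.17 in PB against LDM (edgeR adjusted p = 0.000154), lower in 10 of 10 same-numbered pairs, and -0.62 ± 0.17 in PB against HM (adjusted p = 0.00652), again lower in 10 of 10. In PB against TM it was -0.53 ± 0.17 (edgeR adjusted p = 0.0225), lower in 9 of 10, and this call was lost without TM6 (adjusted p = 0.0520), TM7 (0.0544) or TM8 (0.129). MED16, on the other strand, had 30777 counts in all, against 32564 for CFD. MED16 was lower in PB against LDM, by -0.29 ± 0.09 (edgeR adjusted p = 0.0124), but not in PB against HM, at -0.066 ± 0.09 (0.644), or PB against TM, at -0.061 ± 0.09 (0.675). ELANE, on the same strand, had 312 counts in all.

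**Figure D2:**
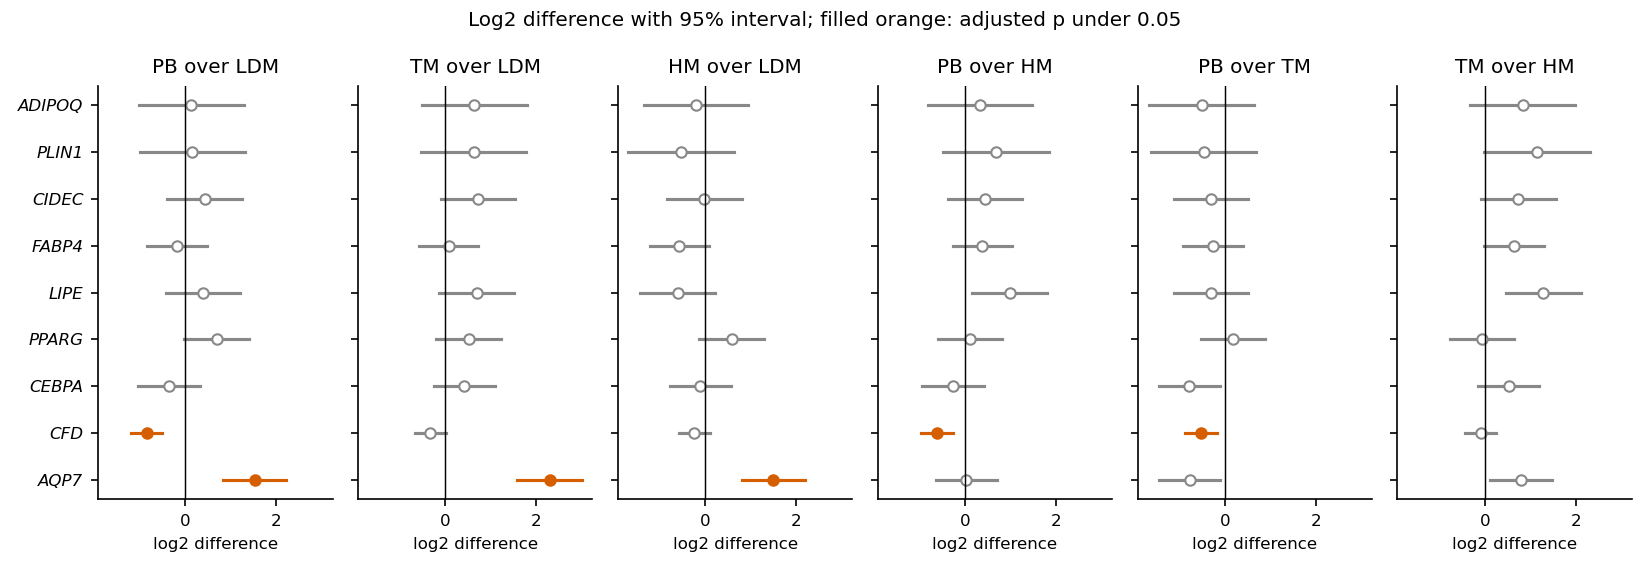
Log2 difference with its 95% interval for the 9 tested fat cell genes in the 6 pairs of cuts, named cut minus the cut after it. The intervals of AQP7 lie above 0 in all 3 pairs against LDM, those of CFD lie below 0 in the 3 pairs with PB first, and those of ADIPOQ, PLIN1, CIDEC, FABP4 and PPARG include 0 in every pair.

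The spread between libraries differed widely from gene to gene. ADIPOQ spanned 163-fold over the 40 libraries, PLIN1 59.9-fold, AQP7 28.9-fold, LIPE 17.1-fold, CIDEC 16.7-fold, FABP4 13.1-fold, PPARG 12.5-fold, CEBPA 9.71-fold and CFD 4.48-fold. These spans include differences between cuts: inside a cut AQP7 spanned 3.74-fold in LDM to 13.5-fold in PB. Without HM7, where ADIPOQ had 9 counts, its span was 61.4-fold, without TM6 it was 101-fold, and that of PPARG was 7.98-fold without PB8. Inside a cut the ratio of highest to lowest ADIPOQ was 34.8 in PB, 11.09 in TM, 101 in HM and 12.9 in LDM. Single libraries set much of these ratios: they were 11.9 in PB without PB7, 6.67 in TM without TM6, 33.9 in HM without HM7 or 48.5 without HM6, and 5.05 in LDM without LDM7. The biological coefficient of variation, edgeR's estimate of the relative spread of a gene between libraries of a cut once counting error is set aside, was 0.845 for ADIPOQ and 0.844 for PLIN1. These ranked 234 and 237 of 11713 genes, whose median was 0.299. LIPE had 0.607, CIDEC 0.603, PPARG 0.516, AQP7 0.511, CEBPA 0.501 and FABP4 0.496, all above that median, and CFD had 0.273, below it.

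Within HM the libraries HM6 and HM7 marked the ends. HM6 exceeded HM7 by 101-fold in ADIPOQ and 39.96-fold in PLIN1, by 7.62-fold in CEBPA, 4.07-fold in LIPE, 3.89-fold in FABP4, 3.73-fold in LEP and 3.67-fold in CIDEC, and by 2.84-fold in CFD, 2.76-fold in PPARG and 1.53-fold in AQP7. HM6 also had the highest sum of 6 smooth muscle and pericyte markers in HM, 5584 CPM against a median of 801, the highest sum of the 11 fibroblast and progenitor markers, 2537 CPM against a median of 1000.4, and the lowest muscle fibre sum, 89619 CPM. The part of these markers in the fat cell values of HM6 was not tested.

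Within a cut, PLIN1 moved with ADIPOQ in all 4 cuts, and CEBPA and FABP4 did in 3 of 4. Over the 10 libraries of each cut, on log2 CPM, ADIPOQ and PLIN1 had a Pearson r of 0.96 in PB, 0.94 in TM, 0.98 in HM and 0.88 in LDM, and a Spearman rho of 0.90, 0.95, 0.89 and 0.82, with adjusted permutation p of at most 0.00432 for r and at most 0.0215 for rho. In all, 36 relations (9 genes in 4 cuts) were tested by two-sided permutation with 100000 resamples and Benjamini-Hochberg adjustment, and 16 passed by r and 15 by rho, the exception being CFD in HM (adjusted permutation p of rho = 0.0572). Without the 2 libraries farthest from the median of ADIPOQ in a cut, 6 passed: PLIN1 in PB, TM and HM, LEP in PB and TM, and CEBPA in TM. LEP in TM passed only without them, and 11 relations that passed with all 10 libraries did not pass on the remaining 8, where their r lay between 0.48 and 0.83.

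CEBPA followed ADIPOQ with an r of 0.94 in TM (adjusted permutation p = 0.00072), 0.84 in HM (0.0113) and 0.78 in LDM (0.0243), but 0.39 in PB (0.341). CIDEC had an r of 0.75 in PB (adjusted permutation p = 0.0309) and 0.91 in HM (0.0072), and 0.65 in TM and 0.58 in LDM, which did not pass. FABP4 had an r of 0.71 in PB, 0.82 in TM and 0.74 in HM, which passed, and 0.63 in LDM, which did not. LEP had an r of 0.89 in PB (adjusted permutation p = 0.00432), and LIPE passed in HM at 0.77 and in LDM at 0.71, while in TM it was at -0.05. CFD passed in HM alone, at 0.78, and PPARG and AQP7 in no cut, with r between -0.21 and 0.53 and between -0.48 and 0.25.

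The genes also differed in how much they moved for a given move of ADIPOQ. With cut means removed over the 40 libraries, and given as a description because same-numbered libraries may share a pig, the log2 slope on ADIPOQ was 0.91 for PLIN1, 0.48 for LEP, 0.44 for CIDEC, 0.37 for FABP4, 0.37 for CEBPA, 0.31 for LIPE, and 0.10, 0.10 and 0.04 for PPARG, CFD and AQP7. A slope of 1 would mean equal fold changes, so PLIN1 came nearest to moving in step with ADIPOQ. The prior count of 2 narrows the log2 range of genes with few counts. It therefore lowers the slope of LEP, with 0 to 33 counts per library, by an amount that was not tested. The ratio of PLIN1 to ADIPOQ counts had a median of 0.711 in PB, 0.711 in TM, 0.635 in HM and 0.716 in LDM, while the ratio of AQP7 to ADIPOQ counts had a median of 1.89 in PB, 1.69 in TM, 2.62 in HM and 0.678 in LDM.

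**Figure D3:**
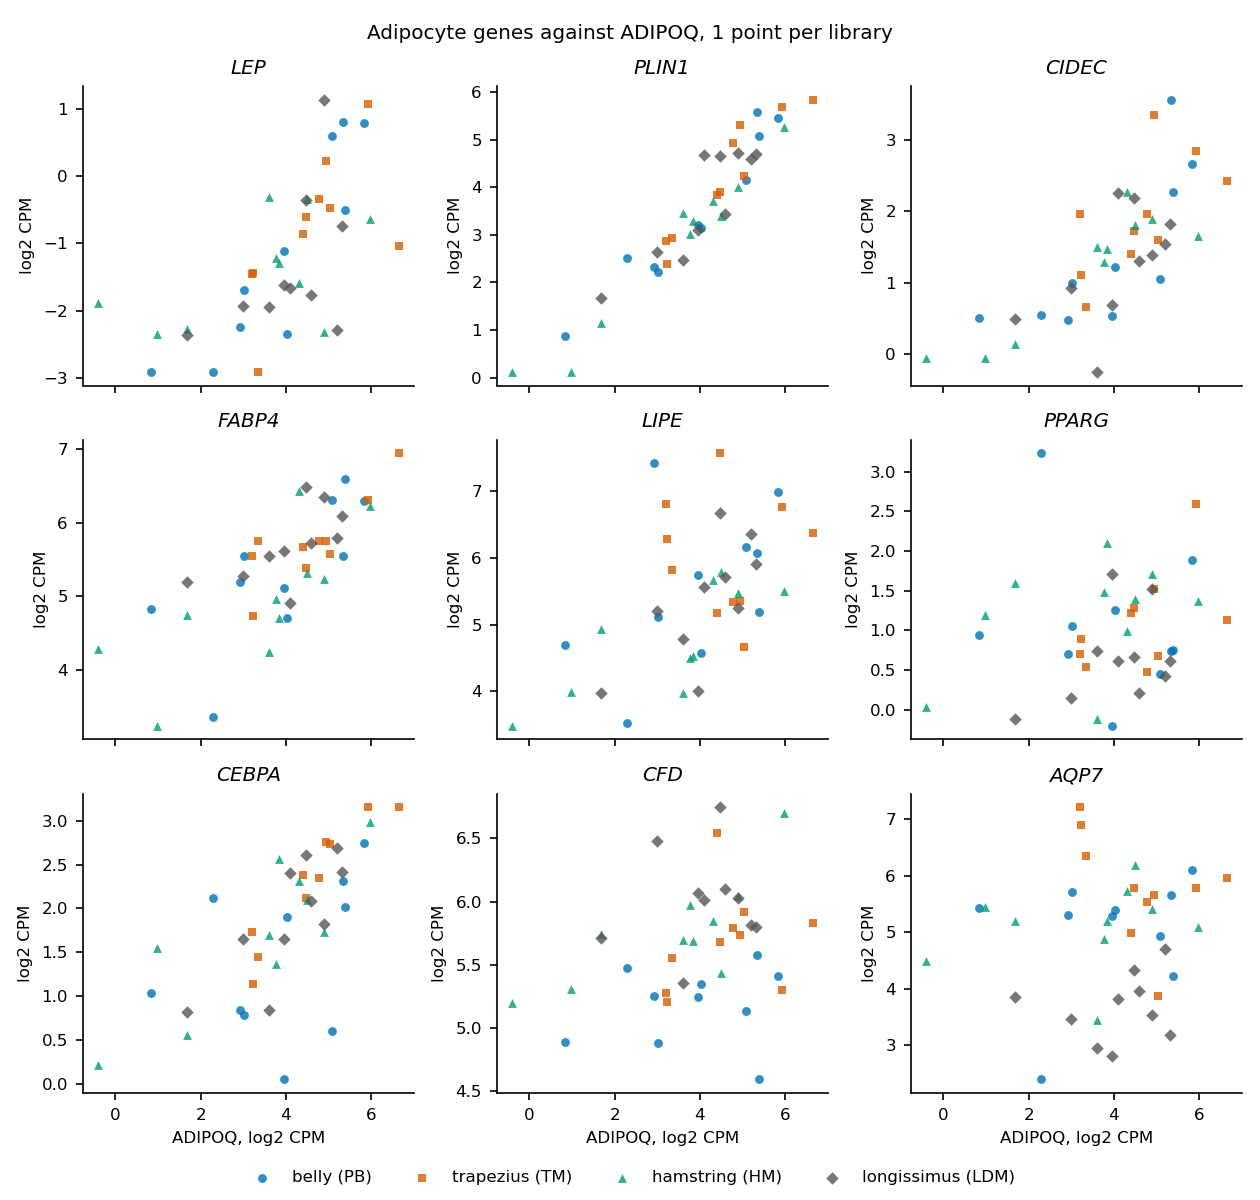
Log2 CPM of each other fat cell gene against log2 CPM of ADIPOQ, 1 point per library, marked by cut. PLIN1 lies along a line in every cut, with r of 0.88 to 0.98, and AQP7 shows no such line, with r of -0.48 to 0.25.

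Libraries with the same number in different cuts were high or low in ADIPOQ together in 3 of the 6 pairs of cuts. Number 3 ranked 1 in PB, 2 in TM, 2 in HM and 1 in LDM, with 57.0, 60.5, 29.9 and 39.8 CPM. Number 7 ranked last in PB, HM and LDM, with 1.64, 0.616 and 3.10 CPM, but 3 of 10 in TM, with 32.6 CPM. Across the 10 numbers the r of log2 ADIPOQ was 0.83 between PB and LDM (adjusted permutation p = 0.0164), 0.75 between HM and LDM (0.0349) and 0.73 between PB and HM (0.0349), over a family of 6. It was 0.20 between TM and LDM, 0.11 between PB and TM and 0.37 between TM and HM, and none of these passed. Spearman's rho was 0.76, 0.59 and 0.47 in the 3 that passed by r, with adjusted permutation p of 0.0874, 0.247 and 0.357. Without the 2 numbers farthest from the first cut's median, r was 0.57, 0.78 and 0.44 in those 3 pairs and 0 of the 6 passed. Between PB and LDM and between PB and HM the numbers left out were 3 and 7. Leaving out the ends of a range can lower r by itself, so the fall cannot show whether those relations rest on them. Between HM and LDM numbers 5 and 7 were left out, r did not shrink and the relation on 8 numbers had an adjusted permutation p of 0.118.

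The library number accounted for 56.3% of the variance of log2 ADIPOQ over the 40 libraries and the cut for 9.53%. For PLIN1 the shares were 60.5% and 12.6%, for CIDEC 56.2% and 10.1%, for LIPE 53.9% and 19.1%, for LEP 41.8% and 5.03%, for FABP4 41.7% and 16.3%, for PPARG 32.4% and 8.26%, and for CEBPA 24.3% and 14.95%. For AQP7 and CFD the number took 17.6% and 19.1% and the cut 48.1% and 40.9%. The 10 numbers take more of the variance than the 4 cuts by their count alone, even where neither matters. The shares are therefore best read beside those of other genes, not number against cut. The medians over all tested genes were 26.9% for the number and 24.7% for the cut, and 3.54% of them had a number share at least as large as ADIPOQ's.

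**Figure D4:**
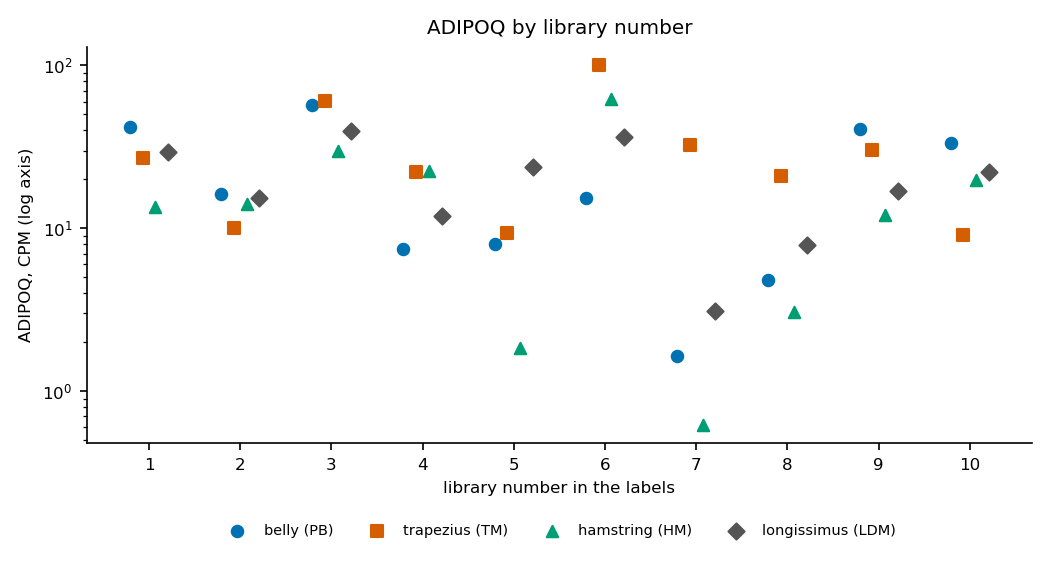
ADIPOQ in CPM on a log axis by library number, with 1 point per cut. Number 3 is among the 2 highest in every cut, and number 7 is the lowest in PB, HM and LDM but 3 of 10 in TM.

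AQP7, PPARG and FABP4 passed by r with summed markers of other cell types in some cuts, but in none by Spearman's rho. A group of 20 relations between a fat cell gene and a summed marker list, each within a cut, was chosen after the values were seen. The adjustment covers the 20 alone, so the adjusted p-values do not account for that choice. AQP7 and 10 slow fibre markers had an r of 0.64 in PB (adjusted permutation p = 0.101), 0.84 in TM (0.0237), 0.74 in HM (0.0459) and 0.26 in LDM (0.633). The slow fibre sum ran from 26012 to 66418 CPM in PB, 8948 to 123186 in TM, 13860 to 82162 in HM and 7055 to 25145 in LDM. All 10 of its genes were higher in PB, in TM and in HM against LDM, beside 41.7%, 24.7% and 32.5% of all genes tested. None passed in PB against HM, PB against TM or TM against HM, beside 27.6%, 23.1% and 0.768%. The differences between these shares were not tested. TM7 and HM9, which had the lowest AQP7 of their cuts, also had the lowest slow fibre sums there, while in PB the lowest were PB8 for AQP7 and PB10 for slow fibres, and in LDM they were LDM2 and LDM8.

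PPARG and 12 leukocyte markers had an r of 0.83 in PB (adjusted permutation p = 0.0186), 0.77 in HM (0.0459), 0.73 in LDM (0.0747) and 0.17 in TM (0.712). The leukocyte sum ran from 48.2 to 317.8 CPM in PB, 34.6 to 197.9 in TM, 50.1 to 220.9 in HM and 31.0 to 196.1 in LDM. PB8, the library with the highest PPARG, had the highest leukocyte sum of PB, 317.8 CPM against a median of 100.8. FABP4 and 12 endothelial markers had an r of 0.85 in LDM (adjusted permutation p = 0.0226) and of 0.04, 0.01 and 0.48 in PB, TM and HM. The endothelial sum ran from 379.2 to 979.3 CPM in PB, 382.5 to 1014 in TM, 457.0 to 1181 in HM and 383.1 to 573.2 in LDM. CFD and the leukocyte sum had an r of 0.52, 0.30, 0.40 and -0.05 in PB, TM, HM and LDM, and LIPE and the slow fibre sum 0.22, 0.47, 0.29 and 0.42. In all, 5 of the 20 passed by r, none by Spearman's rho (smallest adjusted permutation p = 0.0857), and none without the 2 libraries farthest from the median of the marker sum. On the remaining 8 libraries the r of those 5 was 0.38 for AQP7 in TM and 0.56 in HM. It was 0.56 for PPARG in PB and 0.19 in HM, and 0.78 for FABP4 in LDM. The r of AQP7 in TM and of PPARG in HM thus fell most, while the FABP4 relation lost its call with r little lower. AQP7 in PB, which had not passed, went from an r of 0.64 to 0.84 on 8 libraries (adjusted permutation p = 0.256). Whether slow fibres, leukocytes or endothelium contributed to AQP7, PPARG or FABP4 was not tested.

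**Figure D5:**
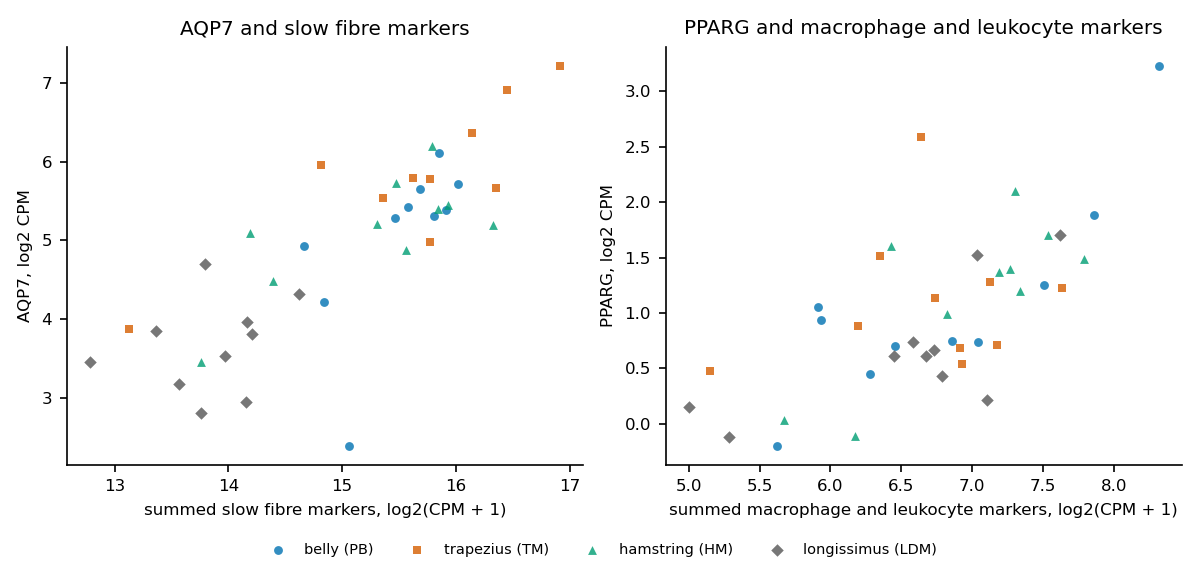
Log2 CPM of AQP7 against the log2 summed CPM of slow fibre markers, and of PPARG against that of leukocyte markers, 1 point per library, marked by cut. LDM lies at the low end of both axes for AQP7, and PB8 stands apart at the top right for PPARG.

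Other genes that fat cells use were read from a list. Of 20 further fat cell genes 18 were in the table and 11 had enough counts to test, since RETN, ACVR1C, ADRB3, LGALS12, MRAP, ADIG and TMEM26 had 4 to 194 counts in all. Among the 11, 0 were higher and 2 lower in PB against LDM, 0 and 2 in TM against LDM, 0 and 4 in HM against LDM, 1 and 0 in PB against HM, 1 and 0 in PB against TM, and 0 and 0 in TM against HM. In HM against LDM these were 36.4% of the 11 genes, beside 32.5% of all genes tested, and 2 were lower without HM4. They were 18.2% in PB and in TM against LDM, beside 41.7% and 24.7%. In PB against HM and PB against TM they were 9.09% each, beside 27.6% and 23.1%. The differences between these shares were not tested. GPD1, which makes glycerol phosphate in muscle fibres as well as fat cells, was lower in PB, TM and HM against LDM, by -1.11 ± 0.24, -1.46 ± 0.24 and -1.28 ± 0.24 on the log2 scale (edgeR adjusted p = 0.00037, 3.9e-05 and 0.00013). PCK1, the enzyme of glyceroneogenesis, differed by -2.88 ± 0.83 in PB and -3.69 ± 0.88 in HM against LDM, calls that rest on LDM2, at 16.5 CPM with the next LDM library at 1.32. Without LDM2 the differences were -0.92 and -1.73, with edgeR adjusted p of 0.288 and 0.0594. NRG4, a growth factor that brown fat secretes in mice, was higher in PB against HM by 0.98 ± 0.28 and against TM by 1.08 ± 0.28, and lower in TM and HM against LDM, by -0.91 ± 0.28 and -0.81 ± 0.28, while PB against LDM was at 0.16 ± 0.27. The call in HM against LDM was lost without HM4.

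A list of 15 genes covered the lipid droplet and lipid uptake, several of which muscle fibres use too. Of these, 6 were higher and 1 lower in PB against LDM, 7 and 0 in TM against LDM, 6 and 1 in HM against LDM, and 1 and 1 in each of PB against HM and PB against TM. In each pair with LDM these were 46.7% of the list, beside 41.7% of all genes tested in PB, 24.7% in TM and 32.5% in HM. In PB against HM and PB against TM they were 13.3% each, beside 27.6% and 23.1%. The differences between these shares were not tested. PLIN5, the droplet coat of oxidative muscle, was higher by 2.29 ± 0.31 in PB, 2.69 ± 0.31 in TM and 1.96 ± 0.31 in HM, each against LDM. LPL, which frees fatty acids from blood lipids, was higher by 1.47 ± 0.32, 1.78 ± 0.32 and 1.11 ± 0.31 in the same 3. CD36, a fatty acid importer, was higher in PB by 1.45 ± 0.19 against LDM and by 1.26 ± 0.19 against HM, where HM against LDM was at 0.19 ± 0.19. FITM2, a droplet budding protein, was higher in TM and HM against LDM, by 1.11 ± 0.23 and 0.86 ± 0.23.

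Of 13 genes of fatty acid and triglyceride synthesis, 3 were higher and 4 lower in PB against LDM, 3 and 1 in TM, 4 and 1 in HM, 0 and 3 in PB against HM, and 0 and 2 in PB against TM. These were 53.8%, 30.8% and 38.5% of the list in PB, TM and HM against LDM, beside 41.7%, 24.7% and 32.5% of all genes tested. In PB against HM and PB against TM they were 23.1% and 15.4%, beside 27.6% and 23.1%. The differences between these shares were not tested. The 4 lower in PB against LDM were 2 without LDM7, LDM8 or LDM9. The lipogenic factor MLXIPL was higher by 2.68 ± 0.47 in PB, 3.0 ± 0.47 in TM and 2.37 ± 0.47 in HM against LDM, and the acyltransferase GPAM by 1.86 ± 0.32, 2.02 ± 0.33 and 1.67 ± 0.32. ACACA, which makes malonyl-CoA, was higher by 0.78 ± 0.19, 1.16 ± 0.19 and 0.99 ± 0.19, and LPIN1, a phosphatidate phosphatase, was lower in PB by -0.80 ± 0.18 against LDM and -0.90 ± 0.18 against HM. Of 14 factors of fat cell differentiation, 4 were higher and 5 lower in PB against LDM, 2 and 4 in TM, and 4 and 4 in HM. That is 64.3%, 42.9% and 57.1% of the list, beside the same 41.7%, 24.7% and 32.5% of all genes. In PB against HM 1 was higher and 1 lower (14.3%, beside 27.6%), and in PB against TM 1 and 2 (21.4%, beside 23.1%). These differences between shares were not tested either. The 4 higher in PB against LDM were 2 without PB3, PB8 or LDM3, and the 2 higher in TM against LDM were 1 without TM6. RXRA, the partner of PPARG, was lower by -0.62 ± 0.14, -0.61 ± 0.14 and -1.05 ± 0.14 in PB, TM and HM against LDM, and STAT5A and STAT5B were lower in all 3 as well, while ZNF423, a factor that commits cells to the fat lineage, was higher in all 3, by 0.63 ± 0.23, 1.149 ± 0.24 and 0.88 ± 0.23, a call that in PB was lost without PB3 or LDM3. All differences called higher or lower in these gene lists and in those of other cells below passed the edgeR test at an adjusted p under 0.05. TM against HM gave 0 calls in these lists, beside 0.768% of all genes tested, and the comparisons with LDM share its 10 libraries.

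Markers of other cells differed between cuts as follows. Beside them, 41.7%, 24.7% and 32.5% of all genes tested passed in PB, TM and HM against LDM. In PB against HM 27.6% passed and in PB against TM 23.1%, and the differences between shares were not tested. Of 12 endothelial markers, 3 were higher in PB, 9 in TM and 9 in HM against LDM, and 4 were lower in PB against HM and 2 against TM. These were 25%, 75% and 75% of the list against LDM, 33.3% in PB against HM and 16.7% in PB against TM. The 3 in PB were 6 without HM9, and the 4 and 2 were 7 and 4 without PB5, while the 2 against TM were lost without several single libraries, HM6 among them. Of 11 tested leukocyte markers, 3 were higher in PB and 1 in TM against LDM, and PTPRC, the common leukocyte antigen, was higher in PB against TM. These were 27.3%, 9.09% and 9.09% of the 11. The 1 in TM was lost without any 1 of 18 libraries. Without PB8 none of these passed in PB, against LDM or TM, and without PB2 1 did against LDM. Of 10 tested fibroblast and progenitor markers, 3 were higher in PB, 3 in TM and 1 in HM against LDM (5 in PB without PB8, 3 in HM without HM7). These were 30%, 30% and 10% of the 10, and in PB 1 was higher against HM and 1 lower against TM. The 6 smooth muscle and pericyte markers were all higher in HM against LDM, 3 of them without HM6, which stood apart, and 5 of them were lower in PB against HM. These were 100% and 83.3% of the 6. In PB and in TM 1 was higher against LDM, and 2 were lower in PB against TM. Of 5 tested Schwann cell markers, 1 was lower in each of PB, TM and HM against LDM (20%). In PB 2 of them were lower against HM (40%) and 3 against TM (60%).

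The genes most like the fat cell signal were named by a rule: the highest r over the 40 libraries, cut means removed, with the mean log2 CPM of ADIPOQ, PLIN1 and CIDEC, among 11278 tested genes with a symbol. These values are a description, and libraries share depth and possibly pigs. The 8 highest were TRARG1 (r = 0.95), which aids insulin-driven glucose transport in fat cells, UNC93A (0.94), THRSP (0.92), a regulator of lipid synthesis, DGAT2 (0.88), which makes the final step to triglyceride, APOE (0.82), a lipoprotein component, HCAR1 (0.82), the lactate receptor of fat cells, SGK2 (0.80), a kinase, and ELOVL6 (0.72), which lengthens fatty acids. AOX1, CCDC69, AQP3, KLB, CES1, AK4 and CYP4B1 followed at 0.69 to 0.71. Ranked the same way with its own value left out, PLIN1 was at place 1, ADIPOQ at 4, CIDEC at 6, CEBPA at 9 and FABP4 at 14, while LIPE was at 123, CFD at 287, PPARG at 1636 and AQP7 at 3594. Chosen after the values were seen, the genes nearest to AQP7 were GPAM (r = 0.85) and CPT2 (0.84), a mitochondrial fatty acid enzyme, those nearest to PPARG were MYD88 (0.84) and LYN (0.80), which signal in leukocytes, and the nearest to LIPE was POR (0.73), an electron donor of microsomal enzymes.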

How the data were processed

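Gene expression was measured by RNA sequencing of 40 pig muscle libraries. Per the labels' protocols, RNA was extracted with Trizol and libraries were made with a stranded KAPA kit. The tools in the submitters' processing notes are HISAT2 2.0.5, HTSeq 0.9.1 and cutadapt 1.15, with Sscrofa11.1 as the genome build and no roles or settings. The deposited table holds whole-number read counts per gene, per the file headers, and FPKM values of the authors, which equal the count scaled by gene length and library total for 100% of entries within 0.001 and were used only to compare genes with each other. There were 0 value columns without a sample and 0 lines that name no gene.

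The count test was edgeR's (version 4.0.16, R 4.3.3: TMM scaling, filterByExpr by cut, a quasi-likelihood fit in robust mode over the 40 libraries with cut alone as a term, Benjamini-Hochberg adjustment over 11713 genes, threshold 0.05). Log2 changes carry the SE of the fit and its 95% interval. Levels are TMM-normalised CPM, and log2 CPM used a prior count of 2. Correlations used two-sided permutation tests with 100000 resamples. No libraries of a cut agreed within sampling noise (chi-square per gene of 29.8 or more).

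The 10 genes and the gene lists were chosen with earlier results of these data known. All 10 genes are named whatever their result, with up to 4 genes of each list by smallest adjusted p in the 4-cut test and the 15 genes most like the fat cell core. Genes without a symbol in the table took 1266 symbols from reference tables, and 5137 kept only an identifier. Alternatives were RLE scaling, DESeq2 1.42.0, limma-voom (limma 3.58.1) with sample weights, no filter, a filter of 1 CPM in 10 libraries, mitochondrial genes taken out, the library number as a block, each pair fitted alone, PB1 left out, HM6, HM9, TM3 and TM7 left out, each library left out in turn and, added later, ADIPOQ as a covariate. No gene sequence was used here.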

Additional observations from a re-analysis of the deposited data

Results flagged for a closer look

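In 10 of the 40 sets formed by a gene and a cut, 1 library lay apart from the other 9: the gap to its nearest neighbour, divided by the whole range, was above Dixon's 95% critical value for 10 samples. Chance flags about 1 in 20 such sets where values are normally distributed, but CPM values here run to the high side and all 10 were the highest library of their cut, so this rate is no measure of them. On log2 CPM, a look added after the data were seen, 2 sets had a library apart: PPARG, with TM3 high, and AQP7, with PB8 low at 5.12 CPM. The other 9 were apart on the CPM scale only. HM6 was apart in ADIPOQ, at 62.5 CPM with the next library at 29.9, in PLIN1, at 38.3 CPM with the next at 16, and in CFD, at 103.7 CPM with the next at 65.9. TM3 was apart in LEP, at 1.97 CPM with the next at 1.03, and in PPARG, at 5.90 CPM with the next at 2.73. LDM1 was apart in LEP, at 2.07 CPM with the next at 0.647. PB9 was apart in CIDEC, at 11.8 CPM with the next at 6.22. LIPE in TM4 was at 189.6 CPM with the next at 111.8, CFD in TM8 at 93.0 CPM with the next at 60.4, and PPARG in PB8 at 9.25 CPM with the next at 3.56.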

How the results depend on the processing

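AQP7 in PB, TM and HM against LDM and CFD in PB against LDM and against HM kept their direction and call under every alternative run, each library left out included. Log2 differences ran, over the alternatives without single libraries left out, from 1.48 to 1.61, 2.16 to 2.47 and 1.47 to 1.63 for AQP7 and from -0.85 to -0.78 and -0.64 to -0.46 for CFD. The number of fat cell genes called became 2 in HM against LDM with limma-voom (PPARG) and with the block (FABP4, adjusted p = 0.0364), 2 in PB against HM with DESeq2, with mitochondrial genes taken out and with the block (LIPE in each, adjusted p = 0.0149 with the block), 2 in PB against TM with limma-voom (CEBPA) and without HM6, HM9, TM3 and TM7 (AQP7), and 1 in TM against HM with DESeq2 and with the block (LIPE, adjusted p = 0.0102 with the block). All genes called in TM against HM numbered 199 with DESeq2, 312 with limma-voom and 213 with the block, against 90. The 4-cut test called 5 with the block (PLIN1 at 0.0312 and FABP4 at 0.0442 added), and LIPE missed the threshold there with no filter (0.0537), without the 4 libraries (0.0633) and with ADIPOQ as covariate (0.0550). Leaving out single libraries, the fat cell genes called ran from 1 to 2 in TM against LDM (CFD added without TM8), 1 to 2 in PB against HM and 0 to 2 in PB against TM, and all genes called in TM against HM from 52 (without TM2 or TM4) to 135. Without the 2 farthest libraries, 6 of 36 relations with ADIPOQ and 0 of 6 between same-numbered libraries passed.

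Signs turned only for differences that had not passed. With limma-voom these were, in PB against LDM, PLIN1 (-0.13) and ADIPOQ (-0.12), FABP4 in TM against LDM (-0.019), CIDEC in HM against LDM (0.16), AQP7 (-0.068) and PPARG (-0.49) in PB against HM and PPARG in PB against TM (-0.26). With the block they were PLIN1 (-0.10) and ADIPOQ (-0.051) in PB against LDM, CIDEC in HM against LDM (0.015) and PPARG in PB against HM (-0.020). ADIPOQ in PB against LDM was -0.011 without PB1, CIDEC in HM against LDM 0.0077 with no filter, AQP7 in PB against HM -0.093 and CFD in TM against HM 0.082 without the 4 libraries. With ADIPOQ as covariate PLIN1 in PB against LDM was -0.056, FABP4 in TM against LDM -0.16, and CIDEC and CEBPA in HM against LDM 0.23 and 0.10. Single libraries left out gave, in PB against LDM, -0.13 to 0.29 for ADIPOQ, -0.15 to 0.33 for PLIN1 and -0.037 to 0.62 for CIDEC; FABP4 in TM against LDM -0.10 to 0.19; in HM against LDM -0.16 to 0.11 for CIDEC and -0.28 to 0.031 for CEBPA; in PB against HM -0.10 to 0.22 for AQP7, -0.39 to 0.23 for PPARG and -0.020 to 0.59 for CIDEC; PPARG -0.32 to 0.52 in PB against TM and -0.32 to 0.062 in TM against HM; and CFD in TM against HM -0.18 to 0.046. Without the 2 farthest libraries the sign of r turned for ADIPOQ with CFD in PB (-0.23) and with PPARG in LDM (-0.24), for AQP7 with slow fibre markers in LDM (-0.0072), LIPE with them in TM (-0.14), FABP4 with endothelial markers in PB and TM (-0.47 each), PPARG with leukocyte markers in TM (-0.30) and CFD with them in LDM (0.25). The cause of these changes was not tested.

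The block is the library number, which the labels do not tie to a pig. Over all tested genes the deviations of same-numbered libraries from their cut means correlated at -0.128 to 0.510, above 0.1 in 52 of 60 pairs. Medians by pair of cuts were 0.19 to 0.28 for the same number and -0.04 to -0.03 for other numbers, and in 31 of 60 the same number gave the highest of 10 correlations, a hint of pairing from the data and not from the design. As the labels do not tie numbers to pigs and 8 of 60 were not above 0.1, cut alone was kept as the term. Whether LIPE, FABP4 and PLIN1 passed in the tests named above depended on that choice. LEP, with 283 counts in all, limits what depth can show for it.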
